A study of Mus musculus with 8 samples.

Results

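The collagen chain genes are the genes whose products assemble, 3 chains at a time, into the triple-helical proteins of the extracellular matrix. Members were the protein-coding genes with a symbol of the form Col, a type number, the letter a and a chain number, and 44 of the 49671 annotated gene rows qualified. They were examined by RNA sequencing of polyadenylated RNA from mouse cells named as adipocytes. Of the 8 samples, 4 carry the label BMPR2 DELX and 4 the label ROSA, which serves as control. The labels name BMPR2 DELX as a mutant but give no allele details, promoter, strain, age, sex, culture conditions or pooling, and they do not say what the ROSA mice and the mutants share. Nothing in them ties a sample to an animal or a culture, and p-values therefore reflect only how much these samples vary, which may be technical.

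Fibrillar collagens (types I, II, III, V, XI, XXIV and XXVII) form or nucleate the banded fibrils that carry tension. Type IV chains form the sheet-like network of basement membranes, and fibril-associated collagens (types IX, XII, XIV, XVI, XIX, XX and XXII in the mouse) sit on fibril surfaces and have interrupted triple helices. The remaining chains build beaded filaments (type VI), anchoring fibrils (VII), short-chain networks (VIII and X), the multiplexins of basement membrane zones (XV and XVIII) or collagens that span the plasma membrane (XIII, XVII, XXIII and XXV). In adipose tissue, collagens I, III, IV, V and VI surround fat cells and stromal cells, and stromal fibroblasts are a main source of the fibrillar chains. The 44 genes comprised 11 fibrillar, 6 basement membrane, 9 fibril-associated and 18 other chains.

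Of the markers of mature adipocytes, 7 of 10, among them Adipoq, Lep and Plin1, stayed at or below 0.299 CPM (counts per 1000000 counts of the library) in every library. The other 3 were Fabp4, at 33.8 to 74.4 CPM over all libraries, Pnpla2, at 32.7 to 48.8 CPM, and Lipe, at 3.64 to 6.63 CPM, and none of them was called. The 10 smooth muscle and pericyte markers summed to 8950 to 12195 CPM in BMPR2 DELX and 10625 to 14099 CPM in ROSA, most of it Acta2 and Tagln. Rgs5 and Kcnj8 of that list stayed at or below 0.458 CPM in every library. The fibroblast list summed to 5151 to 6529 CPM, of which Fbln2 alone gave 4228 to 5594 CPM. Pdgfrb had 401 to 704 CPM, Thy1 104 to 380 CPM and Pdgfra 107 to 175 CPM. Lum, Pi16 and Dpt stayed at or below 1.55 CPM and Dcn at 6.21 to 34.4 CPM. Among the 9 tested members of that list 1 was called, Fbln1, which rose (log2 fold change 0.74, edgeR adjusted p 0.024). Total counts ran from 28799445 to 43684785 per library. Bmpr2, the gene named in the label, had 211 ± 17.6 CPM in BMPR2 DELX against 197 ± 17.05 CPM in ROSA, and its log2 fold change of 0.10 ± 0.08 did not pass (edgeR adjusted p 0.47); the deposited counts per gene do not show which exons the reads cover. Levels are CPM with library sizes scaled by trimmed mean of M values (TMM) factors, ± is the SD over 4 libraries for a level and the SE for a log2 fold change of BMPR2 DELX over ROSA. Calls are at an edgeR quasi-likelihood adjusted p below 0.05.

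Collagen chains changed in both directions, and the rises of types III and XIV and the fall of the type IV chain Col4a6 had the smallest p-values. Of the 44 genes, 33 had enough counts to be tested. Of these, 4 rose (Col3a1, Col5a3, Col24a1 and Col14a1), 4 fell (Col4a6, Col12a1, Col19a1 and Col7a1) and 25 did not pass. The called share was 24.2% of the tested chains beside a background of 9.10% of the 14887 genes tested, with 3.96% of all genes higher and 5.15% lower. With upper-quartile scaling the split was 4 higher and 2 lower, since Col12a1 and Col7a1 no longer passed, and over all genes it was 734 higher and 606 lower against 589 and 766. The median log2 fold change was 0.11 over the tested chains and 0.0045 over all tested genes. The groups did not overlap for 11 of the 33 chains, beside 18.0% of all genes, with BMPR2 DELX above for 6 chains (8.32% of all genes) and below for 5 (9.64%). A gene with enough counts in 1 group alone passes the count filter, so these shares are descriptions.

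**Figure D1:**
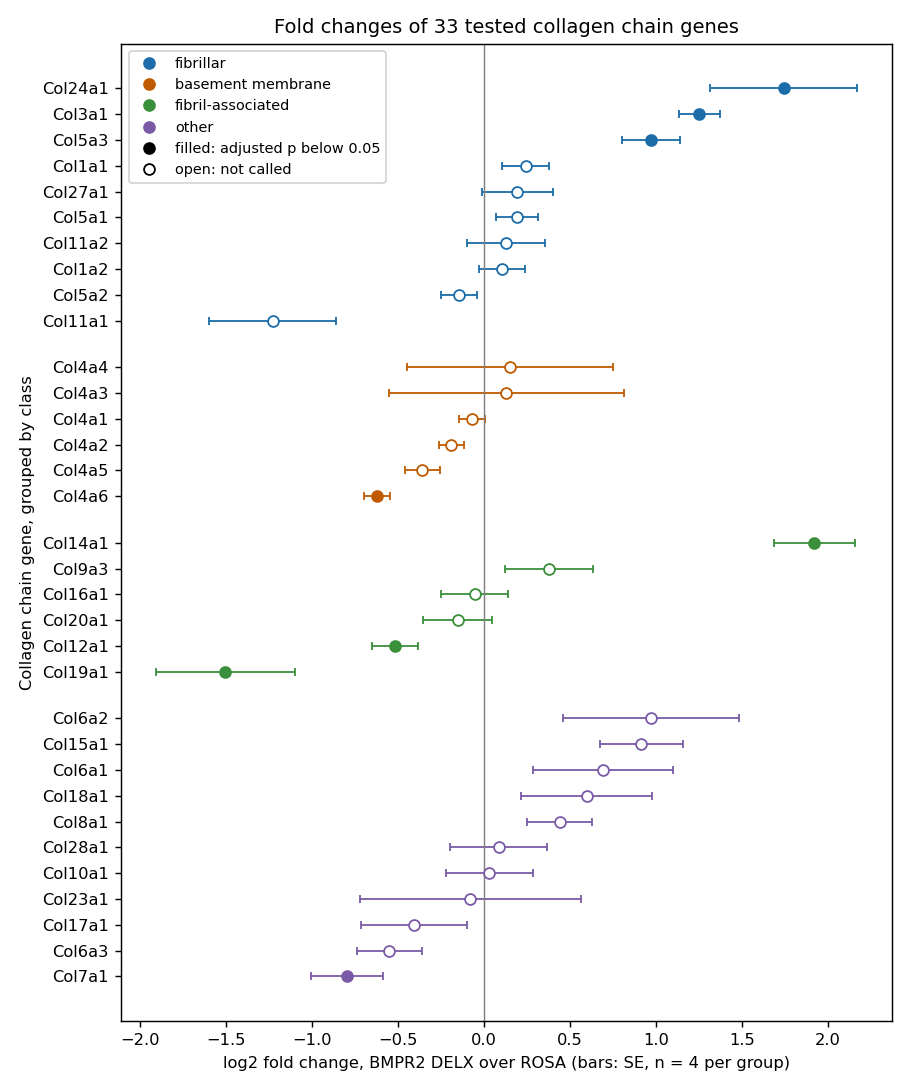
Log2 fold change of BMPR2 DELX over ROSA (x axis, bars show the SE, n = 4 per group) for each of the 33 tested collagen chain genes, grouped by class. Filled points passed the edgeR adjusted p of 0.05. Among fibrillar chains 3 filled points lie to the right, and the single filled basement membrane point, Col4a6, lies at -0.62.

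Promoter windows of 4 called chains are shown, since they are the called chains whose 150 bases before the annotated start were in the sequence table and held 1 of the motifs searched for. The windows are from RefSeq, build GRCm38.p6, run 5′ to 3′ on the gene's strand and end at the base before the start. Col3a1 (chr1:45311388-45311537, plus strand) and Col5a3 (chr9:20815068-20815217, minus strand) were higher, and Col4a6 (chrX:141474077-141474226, minus strand) and Col7a1 (chr9:108953436-108953585, plus strand) were lower. Capitals mark the TATA box letters TATAAA, the box named CCAAT and the GC box core GGGCGG, on either strand.
Col3a1: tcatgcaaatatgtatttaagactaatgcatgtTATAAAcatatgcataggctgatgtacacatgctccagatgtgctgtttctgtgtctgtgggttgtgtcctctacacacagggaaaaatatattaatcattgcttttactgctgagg
Col5a3: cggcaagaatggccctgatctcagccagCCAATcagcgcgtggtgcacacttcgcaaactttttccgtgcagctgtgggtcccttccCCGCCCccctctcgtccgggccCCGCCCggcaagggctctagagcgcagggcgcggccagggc
Col4a6: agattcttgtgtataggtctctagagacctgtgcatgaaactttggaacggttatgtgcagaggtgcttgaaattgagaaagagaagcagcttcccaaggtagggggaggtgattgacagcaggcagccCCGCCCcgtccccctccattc
Col7a1: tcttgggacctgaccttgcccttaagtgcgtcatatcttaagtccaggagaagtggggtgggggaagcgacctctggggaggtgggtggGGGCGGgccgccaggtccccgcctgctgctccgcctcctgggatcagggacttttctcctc
Col3a1 held TATAAA from 117 to 112 bases before the start. Col5a3 held CCAAT from 122 to 118 bases before the start and GGGCGG in its reverse form at 63 to 58 and at 41 to 36 bases. GGGCGG also lay at 21 to 16 bases before the start of Col4a6, in reverse form, and at 61 to 56 bases before that of Col7a1. Over windows of 250 bases, GGGCGG or its reverse CCGCCC was in 57.9% of 38 windows of 35 collagen genes and in 32.7% of all 32851 promoter windows. The shares were 13.2% and 12.4% for TATAAA and 34.2% and 33.8% for CCAAT. The palindromes GGCGCC and GTCTAGAC, both known as SMAD binding sequences, were in 10.5% of collagen windows and 9.59% of all windows, and in 0 of 38 and 0.167%, and neither lay in the 6 windows of called chains. A match is a description of letters and not of binding.

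Type I, IV and V chains made up most of the collagen message. Collagen chains together took 2.31% to 3.02% of all gene counts in a library, and they summed to 26757 ± 2852 CPM in BMPR2 DELX against 25717 ± 1773 CPM in ROSA, with overlapping libraries. In every library 6 chains (Col1a1, Col1a2, Col4a1, Col4a2, Col5a1 and Col5a2) exceeded 1000 CPM, 12 exceeded 100 CPM and 18 exceeded 10 CPM. Per kb of merged exons the order over all libraries was Col1a1 (857 CPM per kb), Col4a1 (663), Col4a2 (483), Col5a2 (367), Col1a2 (356), Col5a1 (199) and Col3a1 (82.9). The merged exons of Col1a2 are 2.32 times as long as its longest coding transcript, and on that transcript Col1a2 ranked second, at 827 CPM per kb against 949 for Col1a1. Col3a1 held rank 7 on either length.

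Fibrillar chains made up 60.0% ± 2.79 of the length-corrected collagen level in BMPR2 DELX and 55.4% ± 2.15 in ROSA. BMPR2 DELX libraries ran from 57.9% to 64.1% and ROSA libraries from 52.4% to 57.2%, so the groups did not overlap. The type IV share was 34.5% ± 2.88 and 39.2% ± 2.19, and its libraries ran from 30.4% to 36.6% and from 37.1% to 42.0%. On the longest coding transcripts the fibrillar share was 65.5% and 61.5%, with ranges of 63.5% to 69.3% and 58.5% to 63.7% that overlapped, and the type IV ranges of 25.0% to 30.9% and 30.4% to 35.7% overlapped too. These shares are descriptions and were not tested.

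**Figure D2:**
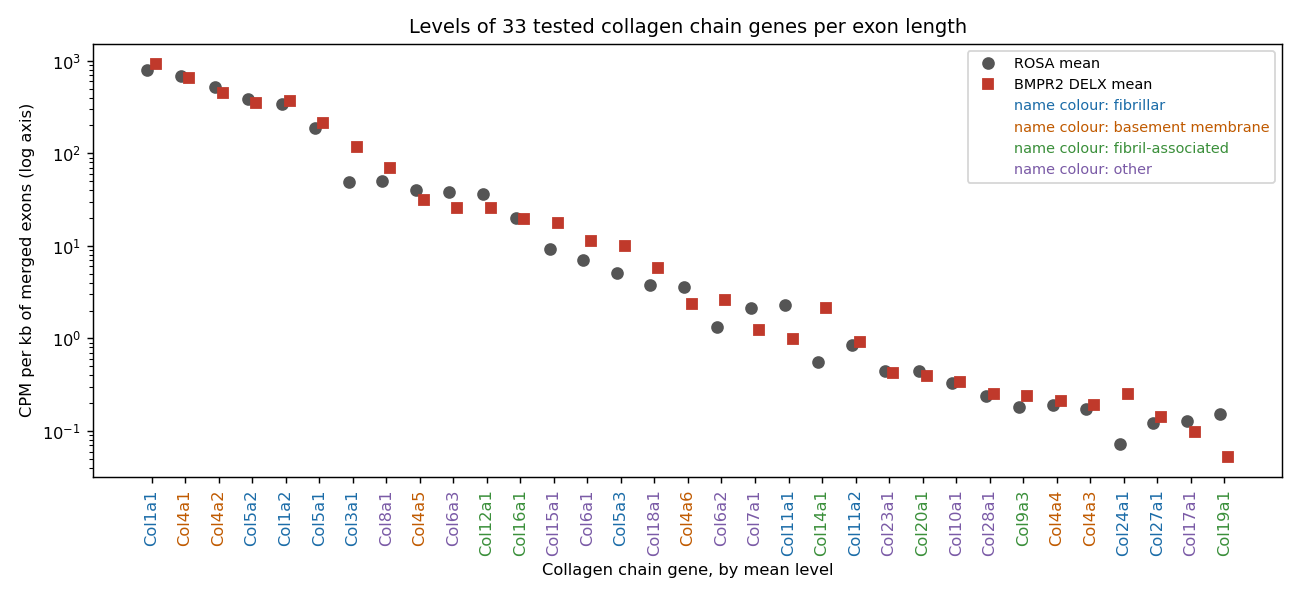
Mean level of the 33 tested chains in CPM per kb of merged exons (log axis) in ROSA (circles) and BMPR2 DELX (squares), ordered by the mean over all libraries. For the 6 most abundant chains both group means lie close together, while Col3a1 stands at 49.0 in ROSA and 117 in BMPR2 DELX.

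Among the fibrillar chains, 3 of 10 tested rose, 0 fell and 7 did not pass in edgeR, with a class median of 0.20. At an unadjusted p below 0.05 the edgeR count was 4 of the 10 chains, beside 3915 of all 14887 genes tested. Of the other tools, voom called 3 higher and 0 lower, and DESeq2 called 3 higher and Col11a1 lower. Col3a1 (ENSMUSG00000026043, chromosome 1, 45311538 to 45349706, GRCm38), the sole chain of type III collagen, which is prominent in extensible tissues, rose 2.38-fold. Its level was 1012, 1036, 1414 and 1120 CPM in BMPR2 DELX 1 to 4 and 518, 409.8, 488 and 508 CPM in ROSA 1 to 4. The lowest BMPR2 DELX library thus lay well above the highest ROSA library. The log2 fold change was 1.25 ± 0.12 (edgeR adjusted p 0.0013), and it ran from 1.14 to 1.31 when 1 library was left out. The major fibril chains did not pass. Col1a1, the alpha 1 chain of type I collagen, had 4985, 6144, 7425 and 5854 CPM in BMPR2 DELX against 5573, 4591, 4454 and 5984 CPM in ROSA (0.24 ± 0.14, edgeR adjusted p 0.28). Col1a2, its alpha 2 partner, had 3692, 4187, 5654 and 4812 CPM against 3984, 3711, 4848 and 4498 CPM (0.11 ± 0.14, edgeR adjusted p 0.66). Both overlapped between the groups, and both were highest in BMPR2 DELX 3.

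Within a library, the Col3a1 count was 0.203, 0.169, 0.190 and 0.191 times that of Col1a1 in BMPR2 DELX and 0.0930, 0.0893, 0.110 and 0.0850 times in ROSA. The lowest BMPR2 DELX ratio exceeded the highest ROSA ratio, and this quantity does not depend on scaling between libraries. The Col1a1 to Col1a2 count ratio was 1.34 ± 0.10 and 1.22 ± 0.21, and the Col5a1 to Col1a1 count ratio was 0.298 ± 0.0294 and 0.308 ± 0.0397, with overlapping libraries for each. ROSA 3 had the lowest Col1a1 to Col1a2 ratio, 0.919.

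**Figure D3:**
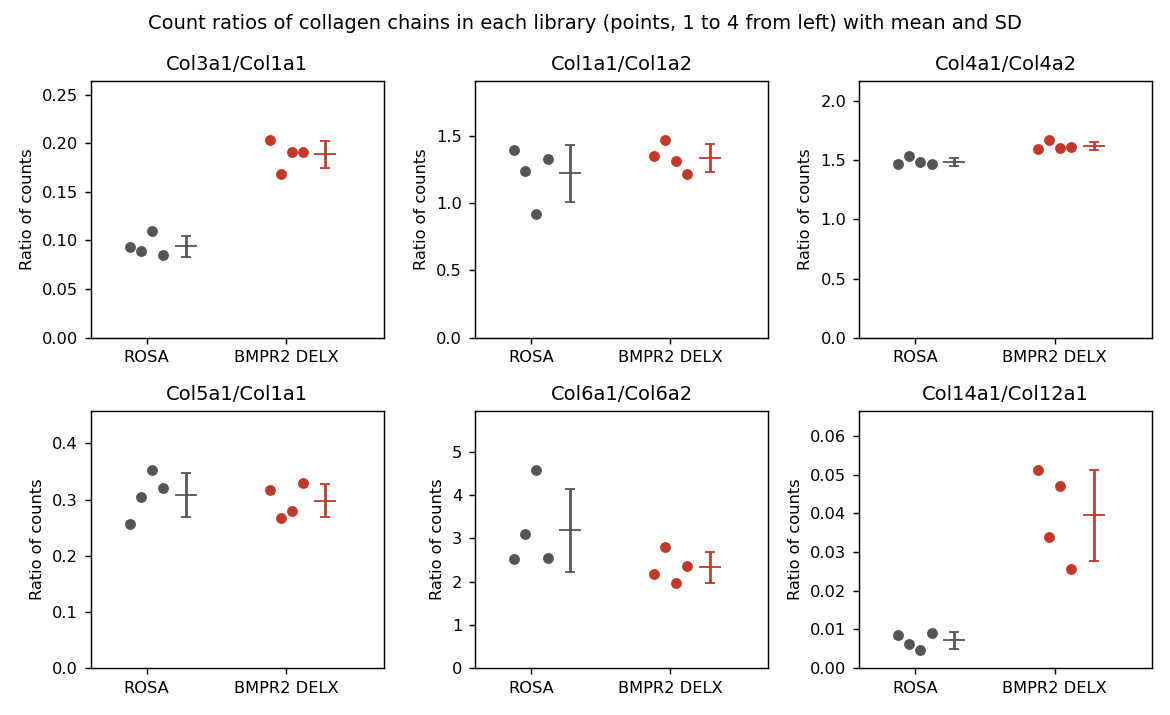
Ratio of the counts of a pair of collagen chains within each library (y axis, from 0), with points for libraries 1 to 4 of ROSA and BMPR2 DELX and the mean with SD beside them. Col3a1/Col1a1, Col4a1/Col4a2 and Col14a1/Col12a1 lie higher in all BMPR2 DELX libraries than in any ROSA library, and the other ratios overlap.

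The type V chains, which nucleate and limit the width of type I fibrils, moved unequally. Col5a3 (ENSMUSG00000004098, chromosome 9, 20770050 to 20815067), the scarcest of them, had 93.5, 61.6, 64.0 and 52.1 CPM in BMPR2 DELX and 35.9, 36.4, 29.0 and 36.8 CPM in ROSA. Every BMPR2 DELX library lay above every ROSA library, and BMPR2 DELX 1 stood highest. It rose by 0.97 ± 0.17 on the log2 scale (edgeR adjusted p 0.012), with 0.78 to 1.08 without 1 library. It no longer passed without both ROSA 1 and ROSA 2, where the log2 fold change was 1.06 (edgeR adjusted p 0.098). Col5a2 had 3029, 3102, 3709 and 3527 CPM in BMPR2 DELX and 3311, 3309, 4211 and 3959 CPM in ROSA (-0.15 ± 0.10, edgeR adjusted p 0.41). Col5a1 had 1807 ± 237 CPM against 1578 ± 238 CPM (0.20 ± 0.12, edgeR adjusted p 0.34). Col5a2 lies 24614 bases from Col3a1 on chromosome 1, with the 2 genes pointing toward each other, and their log2 fold changes were -0.15 and 1.25.

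Col24a1 (ENSMUSG00000028197, chromosome 3, 145292472 to 145552011), a scarce fibrillar chain, had 1.93, 1.10, 3.05 and 1.50 CPM in BMPR2 DELX and 0.435, 0.509, 0.266 and 1.02 CPM in ROSA. ROSA 4 came close to BMPR2 DELX 2, and the groups did not overlap. It rose by 1.74 ± 0.43 (edgeR adjusted p 0.035), and the call held without BMPR2 DELX 2 or ROSA 4 and was lost without each of the other 6 libraries, with an adjusted p of up to 0.10. Col11a1, the alpha 1 chain of type XI, which is best known from cartilage, had 12.5, 12.5, 14.6 and 10.5 CPM in BMPR2 DELX and 51.8, 31.3, 18.9 and 15.2 CPM in ROSA. All ROSA libraries lay above all BMPR2 DELX libraries, ROSA 4 narrowly, and the log2 fold change of -1.23 ± 0.37 did not pass (edgeR adjusted p 0.079), while DESeq2 called it lower (adjusted p 0.028). It was -0.79 without ROSA 1 and -1.44 without ROSA 4, where the adjusted p was 0.035. Col11a2 and Col27a1 had means of 6.30 and 1.84 CPM in BMPR2 DELX and 5.78 and 1.61 CPM in ROSA, and neither passed. Col2a1, the cartilage fibril chain, was at or below 0.399 CPM and was not tested.

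Among markers of cartilage and bone, 7 of 10, among them Acan and Matn1, were at or below 0.342 CPM and Cnmd was at 0 in every library. The summed level of that list was 43.5 to 55.7 CPM in BMPR2 DELX and 57.6 to 74.5 CPM in ROSA, carried by Runx2 and Sox9. Among 3 tested members, Sox9 fell (-1.20, edgeR adjusted p 0.031) and 2 did not pass. The part of this list in the fibrillar values was not tested. In bulk RNA, fewer cells of a type and less RNA per cell cannot be told apart.

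**Figure D4:**
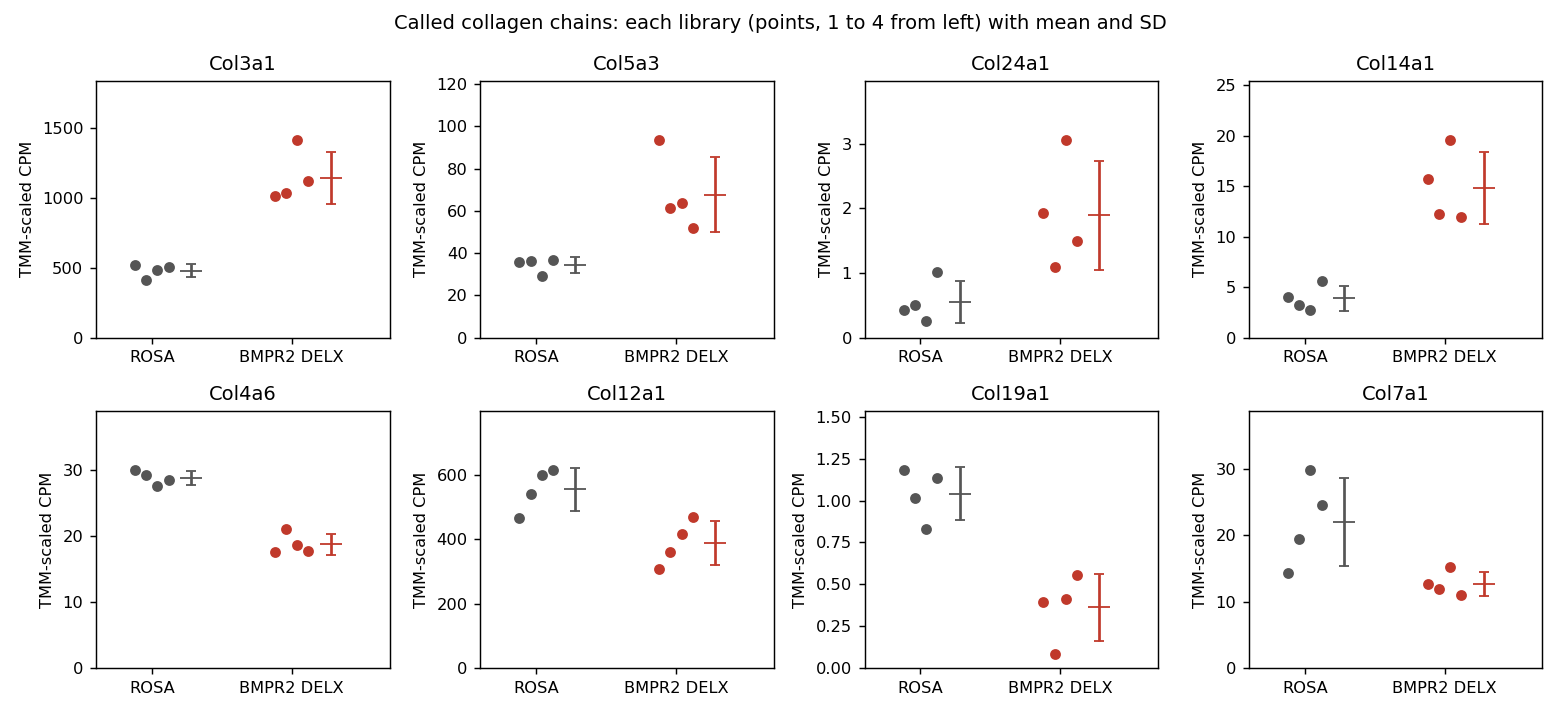
TMM-scaled CPM (y axis, from 0) of the 8 called chains in ROSA (grey) and BMPR2 DELX (red), with points for libraries 1 to 4 from left and the mean with SD beside them. The groups are separate for Col3a1, Col5a3, Col24a1, Col14a1, Col4a6 and Col19a1, and Col12a1 and Col7a1 overlap.

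Among the 6 type IV chains 1 fell, 0 rose and 5 did not pass in edgeR, with a median of -0.13. At an unadjusted p below 0.05 the edgeR count was 3 of the 6 chains, beside 3915 of all 14887 genes tested. DESeq2 called 3 lower and 0 higher, and voom called 1 lower and 0 higher. Col4a6 (ENSMUSG00000031273, chromosome X, 141165403 to 141474076), whose product pairs with the alpha 5 chain in some basement membranes such as those of smooth muscle, had 17.6, 21.0, 18.7 and 17.7 CPM in BMPR2 DELX. It had 30.0, 29.3, 27.6 and 28.6 CPM in ROSA. The spread within each group was small beside the gap between them. It fell by 0.62 on the log2 scale (SE 0.08, edgeR adjusted p 0.0031), and passed in all 18 alternative fits that were run, with an adjusted p of up to 0.047. Its neighbour Col4a5 starts 1308 bases away on the opposite strand and had 179, 231, 220 and 219.6 CPM in BMPR2 DELX and 239, 258, 296 and 296 CPM in ROSA. The groups did not overlap, and the log2 fold change of -0.36 ± 0.10 lay just outside the threshold (edgeR adjusted p 0.052).

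The 2 abundant chains Col4a1 and Col4a2, which form the common basement membrane trimer, share a divergent promoter region on chromosome 8, where their annotated exons overlap by 22 bases. Col4a1 had 4474, 5140, 4772 and 4964 CPM in BMPR2 DELX and 5080, 5202, 4612 and 5369 CPM in ROSA (-0.07 ± 0.08, edgeR adjusted p 0.61). Col4a2 had 2802, 3079, 2971 and 3085 CPM and 3468, 3381, 3102 and 3664 CPM (-0.19 ± 0.07, edgeR adjusted p 0.13). Col4a1 overlapped between the groups, and Col4a2 was below every ROSA library in each BMPR2 DELX library by a narrow margin. The Col4a1 to Col4a2 count ratio was 1.60, 1.67, 1.61 and 1.61 in BMPR2 DELX and 1.47, 1.54, 1.49 and 1.47 in ROSA, without overlap.

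Col4a3 and Col4a4, the chains of the kidney glomerular basement membrane, start 71 bases apart on chromosome 1 and were scarce. Col4a3 had 0.818, 1.52, 4.84 and 0.424 CPM in BMPR2 DELX and 1.86, 2.57, 1.46 and 0.962 CPM in ROSA. Col4a4 had 1.01, 2.68, 4.64 and 0.692 CPM and 2.73, 2.96, 1.20 and 1.14 CPM. Both genes had their highest value in BMPR2 DELX 3 and their lowest in BMPR2 DELX 4, and neither passed (edgeR adjusted p 0.93 and 0.90). Among 12 epithelial markers, 1 rose, Pax8, with 0.883, 1.92, 4.49 and 0.290 CPM in BMPR2 DELX and 0.217, 0.315, 0.0997 and 0.0583 CPM in ROSA (3.38 ± 0.87, edgeR adjusted p 0.047). Of the 8 tested, 6 had positive log2 fold changes. Krt8, Krt7 and Cdh16 were highest in BMPR2 DELX 3, at 11.2, 13.1 and 4.58 CPM. Among mutant libraries they were lowest in BMPR2 DELX 4, at 0.938, 1.16 and 0.0670 CPM, and they did not pass. Krt18 and Cldn4 were instead highest of the mutant libraries in BMPR2 DELX 2. Krt19 had 8.34, 20.3, 7.57 and 12.1 CPM in BMPR2 DELX and 22.4, 30.7, 27.8 and 24.6 CPM in ROSA, with its lowest value in BMPR2 DELX 3. Of the 12 epithelial markers, 5, among them Epcam and Cdh1, stayed at or below 0.997 CPM, and Krt5 was at 0. The epithelial sum was 23.0 to 57.7 CPM in BMPR2 DELX and 33.1 to 49.4 CPM in ROSA, and its part in the Col4a3 and Col4a4 values was not tested.

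Endothelial cells also make type IV, XV and XVIII collagen, and the endothelial markers varied among libraries of both groups. The sum of 12 endothelial markers was 1790, 1849, 392.4 and 929.5 CPM in BMPR2 DELX and 1498, 1886, 851 and 1361 CPM in ROSA, and of these Vwf was at or below 0.759 CPM. In BMPR2 DELX 3, where that sum was lowest, Col4a1 and Col4a2 were not lowest of their group. In ROSA 3, where the sum was lowest of the ROSA libraries, both chains were lowest of that group, at 4612 and 3102 CPM. The part of endothelial or smooth muscle cells in the type IV values was not tested. In the smooth muscle list 1 marker, Cspg4, fell and 1, Notch3, rose among 8 tested, with a median of -0.25.

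**Figure D5:**
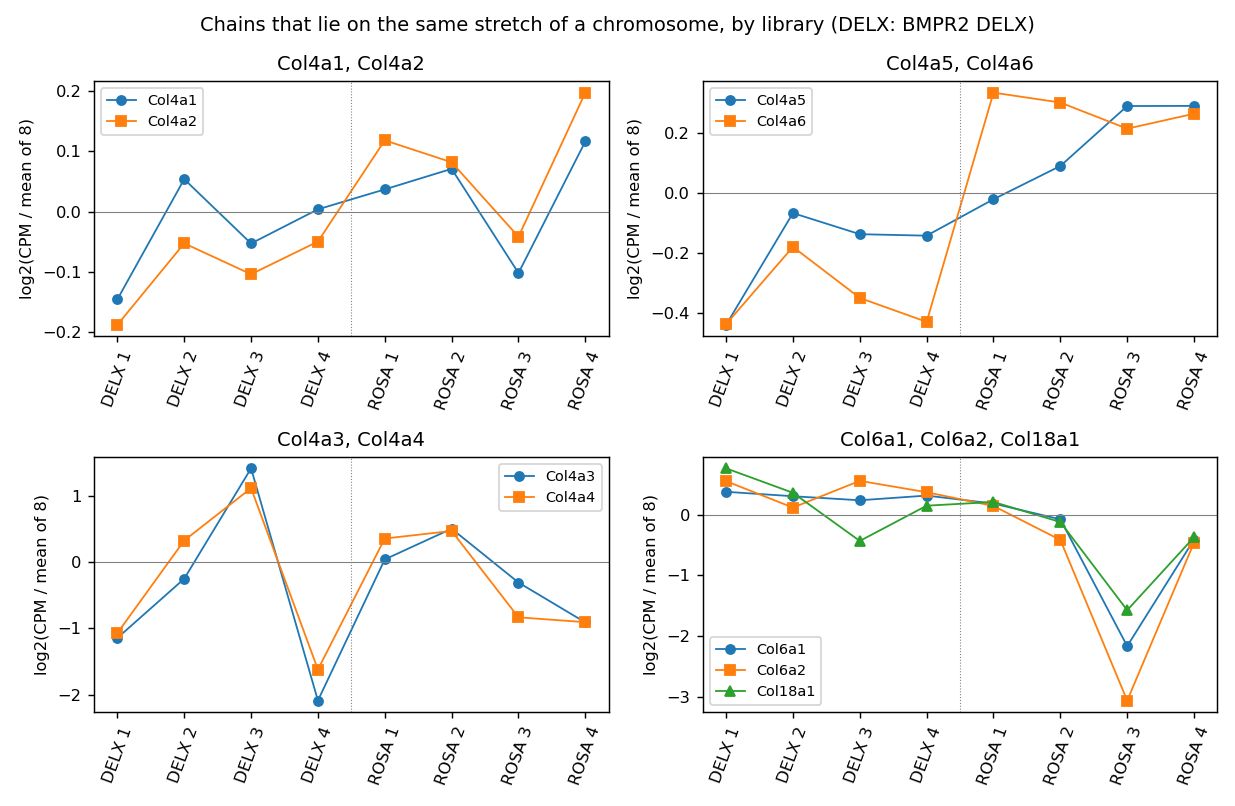
Log2 of the CPM in each library over the mean of the 8 libraries (y axis) for the neighbouring type IV pairs and for Col6a1, Col6a2 and Col18a1, which share a stretch of chromosome 10, with lines only joining points of 1 gene. Col4a5 and Col4a6 are lower in all BMPR2 DELX libraries, Col4a3 and Col4a4 peak in BMPR2 DELX 3, and Col6a1, Col6a2 and Col18a1 are lowest in ROSA 3.

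Among 6 tested fibril-associated chains 1 rose, 2 fell and 3 did not pass in edgeR, with a median of -0.10. Over all 14887 genes tested, 9.10% were called. At an unadjusted p below 0.05 the edgeR count was 3 of the 6 chains, beside 3915 of all 14887 genes. DESeq2 and voom called the same chains, Col14a1 higher and Col12a1 and Col19a1 lower. Col14a1 (ENSMUSG00000022371, chromosome 15, 55307750 to 55520803), which binds fibril surfaces and limits fibril growth, had 15.7, 12.3, 19.6 and 11.9 CPM in BMPR2 DELX and 4.01, 3.27, 2.79 and 5.60 CPM in ROSA. The lowest BMPR2 DELX library was more than any ROSA library, and the rise was 3.79-fold (log2 1.92 ± 0.24, edgeR adjusted p 0.0033). The log2 fold change ran from 1.76 to 2.14 without 1 library, and without both ROSA 1 and ROSA 2 it was 1.83 with an edgeR adjusted p of 0.057.

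Col12a1 (ENSMUSG00000032332, chromosome 9, 79598991 to 79718831), the related chain of type XII that bridges fibrils under load, moved the other way. It had 308, 361, 416 and 467.2 CPM in BMPR2 DELX and 466.9, 540.2, 601 and 613 CPM in ROSA. BMPR2 DELX 4 and ROSA 1 lay within 1 CPM of each other, so the groups touched. It fell by 0.52 (SE 0.13, edgeR adjusted p 0.042), and the call held without BMPR2 DELX 4 or ROSA 1 and was lost without each of the other 6 libraries, with an adjusted p of up to 0.11. The Col14a1 count was 0.0510, 0.0339, 0.0471 and 0.0256 times that of Col12a1 in BMPR2 DELX and 0.00858, 0.00606, 0.00465 and 0.00913 times in ROSA. The 2 sets of ratios did not overlap.

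Col19a1 (ENSMUSG00000026141, chromosome 1, 24261890 to 24587472), a rare chain of basement membrane zones, had 0.392, 0.0845, 0.411 and 0.558 CPM in BMPR2 DELX and 1.18, 1.02, 0.831 and 1.14 CPM in ROSA. It fell by 1.50 (SE 0.40, edgeR adjusted p 0.046), on at most 42 counts in a library, and the call held without BMPR2 DELX 2 or BMPR2 DELX 4 and was lost without each of the other 6, with an adjusted p of up to 0.11. Col16a1, which is found at fibrils and at cell surfaces, had 118, 112, 155 and 138 CPM in BMPR2 DELX and 101, 107, 181 and 154 CPM in ROSA and did not pass (edgeR adjusted p 0.90). Col9a3 and Col20a1 had means of 0.912 and 2.03 CPM in BMPR2 DELX and 0.703 and 2.26 CPM in ROSA, and neither passed. Col9a1, Col9a2 and Col22a1 were not tested. Col9a1 had 0 counts in each BMPR2 DELX library, which allows up to 0.0687 to 0.104 CPM at 3 counts, and at most 3 counts in ROSA.

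Among 11 tested chains of the other types 1 fell, 0 rose and 10 did not pass in edgeR, with a median of 0.09. At an unadjusted p below 0.05 the edgeR count was 4 of the 11 chains, beside 3915 of all 14887 genes tested. DESeq2 and voom both called Col15a1 higher, and DESeq2 called Col6a3 and Col7a1 lower. Col7a1 (ENSMUSG00000025650, chromosome 9, 108953586 to 108984875), the anchoring fibril chain that ties epithelial basement membrane to the stroma, had 12.7, 11.9, 15.2 and 11.0 CPM in BMPR2 DELX and 14.3, 19.5, 29.8 and 24.6 CPM in ROSA. ROSA 1 lay below BMPR2 DELX 3, so the groups overlapped. It fell by 0.79 (SE 0.21, edgeR adjusted p 0.046), and the call held without ROSA 1 and was lost without each of the other 7 libraries, with an adjusted p of up to 0.11.

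The multiplexin Col15a1 (ENSMUSG00000028339, chromosome 4, 47208161 to 47313167) had 139.5, 81.2, 132 and 91.4 CPM in BMPR2 DELX and 53.8, 41.0, 79.6 and 60.8 CPM in ROSA. The groups were separate, BMPR2 DELX 2 lying just above ROSA 3, and the log2 fold change of 0.92 ± 0.24 lay just outside the threshold (edgeR adjusted p 0.0502). It passed in 9 of 18 alternative fits, DESeq2 and voom included. The other multiplexin, Col18a1, from which endostatin is cut, had 56.6, 42.8, 24.7 and 36.9 CPM and 38.5, 30.7, 11.2 and 25.8 CPM and did not pass (0.60 ± 0.38, edgeR adjusted p 0.36). In each group Col18a1 was lowest in the library with the lowest endothelial sum, while Col15a1 was second highest in BMPR2 DELX 3 and highest of its group in ROSA 3. The part of endothelial cells in these values was not tested. Counting both multiplexins with the type IV chains left the counts at 1 lower and 0 higher, now of 8 chains.

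Type VI chains, which form beaded filaments around cells, did not pass. Col6a1 had 52.3, 49.7, 47.4 and 50.04 CPM in BMPR2 DELX and 45.7, 38.2, 8.97 and 30.3 CPM in ROSA (0.69 ± 0.41, edgeR adjusted p 0.32). Col6a2 had 24.0, 17.7, 24.1 and 21.1 CPM and 18.1, 12.3, 1.96 and 11.9 CPM (0.97 ± 0.51, edgeR adjusted p 0.27). The groups were separate for Col6a1, BMPR2 DELX 3 lying just above ROSA 1, and overlapped for Col6a2. ROSA 3 was far below the other ROSA libraries in both, and without it their log2 fold changes were 0.39 and 0.63, with edgeR adjusted p of 0.088 and 0.060. Col6a3, the large alpha 3 chain from which endotrophin is cut, went the opposite way, with 259.9, 257, 357 and 365 CPM in BMPR2 DELX and 428, 533, 314 and 536 CPM in ROSA (-0.55 ± 0.19, edgeR adjusted p 0.10). Without ROSA 3 it passed, at -0.69 (edgeR adjusted p 0.0355). Col6a4, Col6a5 and Col6a6 were not tested.

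Col8a1, a short chain of vessel wall and stroma, had 453, 479, 647 and 571 CPM in BMPR2 DELX and 268, 363, 482 and 469.6 CPM in ROSA, with overlap (0.44 ± 0.19, edgeR adjusted p 0.18). Col10a1, Col17a1, Col23a1 and Col28a1 had group means of 0.582 to 2.55 CPM and did not pass. The membrane-spanning Col23a1 had 5.30, 2.59, 0.675 and 1.25 CPM in BMPR2 DELX and 3.14, 3.49, 0.764 and 2.80 CPM in ROSA, with wide spread in both groups. The 11 chains that were not tested had at most 14 counts in any library.

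Among genes that modify, fold, process, cross-link and bind collagen, 1 of 48 tested rose, 2 fell and 45 did not pass, with a median of 0.06. The called share was 6.25%, beside 9.10% of all genes, and no difference was tested. Among 16 tested genes of the prolyl and lysyl modification list, 0 were called by edgeR. In edgeR 3 of them had an unadjusted p below 0.05, beside 3915 of all 14887 genes tested. DESeq2 and voom each called P4ha3 and P3h3 higher, a prolyl 4-hydroxylase subunit and a member of the prolyl 3-hydroxylase family (0.39 and 0.31 in edgeR, adjusted p 0.071 and 0.0585). Of 10 folding and secretion genes, 0 were called by edgeR or voom, and DESeq2 called 1 higher, the vesicle coat gene Sec24d. In edgeR 2 of the 10 had an unadjusted p below 0.05, beside the same 3915 of 14887 genes. The collagen chaperone Serpinh1 had 1665 ± 214 CPM against 1483 ± 93.3 CPM in ROSA and did not pass. Among 8 tested propeptide processing genes 1, Tll1, fell. DESeq2 also called Adamts14 lower, while edgeR (log2 fold change -0.37, adjusted p 0.086) and voom did not. Tll1, a tolloid-like protease related to the procollagen C-proteinase Bmp1, had 94.1, 92.8, 78.7 and 71.6 CPM in BMPR2 DELX and 209, 194, 208 and 135 CPM in ROSA. All ROSA libraries were higher, and it fell by 1.15 (SE 0.15, edgeR adjusted p 0.0034), while Bmp1 itself did not pass (0.29 ± 0.11, edgeR adjusted p 0.12).

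Of 6 cross-linking enzymes, 1 rose. Pxdn, the peroxidase that forms sulfilimine cross-links in type IV collagen, had 179, 173, 171 and 164 CPM in BMPR2 DELX and 132.5, 125, 131 and 139 CPM in ROSA (0.38 ± 0.06, edgeR adjusted p 0.0060), with separate groups. The lysyl oxidase Lox had 3781 ± 783 CPM against 4679 ± 924 CPM in ROSA and did not pass. DESeq2 called Loxl4 lower, while edgeR (log2 fold change -0.70, adjusted p 0.0745) and voom did not. Of 8 tested collagen receptors, 1 fell. Itgb1, the beta subunit of the collagen-binding integrins, had 2075, 1646, 2073 and 1895 CPM in BMPR2 DELX and 2754, 2683, 2669 and 2609 CPM in ROSA. It fell by 0.48 (SE 0.08, edgeR adjusted p 0.010), and every ROSA library lay above every BMPR2 DELX library. Tll1, Pxdn and Itgb1 passed without each library in turn, and none of them passed without both ROSA 1 and ROSA 2 (edgeR adjusted p 0.054, 0.069 and 0.11).

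Summed levels of 2 other marker lists also stood apart between the groups. The macrophage and leukocyte sum was 37.4 to 70.4 CPM in BMPR2 DELX and 25.0 to 36.4 CPM in ROSA, with Ptprc and 5 other of its 10 genes at or below 0.909 CPM. All 4 tested members had positive log2 fold changes, with a median of 1.11. Of these 4, Cd68 rose (0.72, edgeR adjusted p 0.024) and 3 did not pass. The mesothelial sum was 66.5 to 81.7 CPM in BMPR2 DELX and 88.4 to 132.9 CPM in ROSA over 6 genes. Of these, Upk1b fell (-2.64, edgeR adjusted p 0.017), and Krt19, which is also in the epithelial list, did not pass (-1.12, edgeR adjusted p 0.0515). The log2 fold changes of the other members included 3 positive values, those of Wt1, Upk3b and Lrrn4, and none of these passed. Their part in the collagen values was not tested.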

How the data were processed

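Polyadenylated RNA of 8 samples was sequenced, and the authors deposited raw read counts per Ensembl gene, 1 file per sample. The submitters' processing notes name the build GRCm38 and the tools STAR 2.5.2b and HTSeq, without roles, and the column layout matches STAR gene counts. The annotation release and filters are not given in the sources used here. The opposite-strand column, with 93.4% of strand-assigned counts, was used. The 4 lines naming no gene (14.7% to 22.0% of reads) were left out. GENCODE M21 supplied symbols, positions and exon lengths for 49412 of 49671 gene rows.

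Genes kept by filterByExpr were fitted in edgeR 4.0.16 (R 4.3.3) with TMM factors and the robust quasi-likelihood test, with Benjamini-Hochberg adjustment over all genes tested. The SE is the size of the log2 fold change divided by the square root of F. No pairing was used, since the labels state none and same-numbered libraries did not all deviate together. Intervals and floors cover counting error only.

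Members and lists were chosen with earlier results of these data known. Values in every library are given for called chains and the 3 most abundant of each class. Col4a3, Col4a4, Col6a1, Col6a2, Col11a1, Col18a1 and any other chain with values in every library were added after their values were seen, as were the marker genes named. Of the collagen synthesis, processing and receptor lists, called members are named, and P4ha3, P3h3, Sec24d, Serpinh1, Bmp1, Adamts14, Lox and Loxl4 were added likewise. Promoters were searched over 250 bases. Protein sequences were not used here. Reads in the 141 exon bases that Col3a1 shares with a miRNA gene on its strand, and the 36 that Col7a1 shares, can be ambiguous. Alternatives were RLE and upper-quartile factors, DESeq2 1.42.0, voom in limma 3.58.1, other count filters, the unstranded column, blocks by replicate number, and fits that dropped libraries. Figures were drawn with matplotlib 3.10.9.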

Additional observations from a re-analysis of the deposited data

Results flagged for a closer look

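Over 78 groups of 4 library values (33 chains and 6 count ratios in each of 2 conditions), 2 held a library whose gap to its nearest neighbour was above Dixon's 95% critical value for 4 samples as a share of the group's range, and chance alone flags about 1 in 20 groups. Col5a3 was set apart in ROSA 3, at 29.0 CPM against 35.9 to 36.8 CPM in the other ROSA libraries, and without that library its log2 fold change was 0.90 with an edgeR adjusted p of 0.028. The Col4a1 to Col4a2 count ratio was set apart in BMPR2 DELX 2, at 1.67 with the remaining 3 mutant libraries at 1.60 to 1.61.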

How the results depend on the processing

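Of the called chains, Col3a1 and Col4a6 passed in all 18 alternative fits, Col5a3 and Col14a1 in 17 of 18, and Col24a1, Col12a1, Col7a1 and Col19a1 in 9 of 18, 8 of 18, 7 of 18 and 8 of 17 (the 1 CPM filter removed Col19a1). Against 4 higher and 4 lower chains as reported, lower chains were 2 with upper-quartile factors and 8 with DESeq2, and 2 without BMPR2 DELX 3 and ROSA 3 together. Without ROSA 1 and ROSA 2 together, 1 chain was higher and 2 were lower, on fewer samples. Leaving out 1 library gave 3 to 5 higher and 1 to 3 lower chains. All genes called were 1070 higher and 1228 lower with DESeq2, 64 and 108 without ROSA 1 and ROSA 2, 222 and 409 without BMPR2 DELX 3 and ROSA 3, and 213 to 545 higher and 264 to 721 lower without 1 library, the lowest without ROSA 2.

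Among the synthesis, processing and receptor genes (1 higher and 2 lower as reported), higher calls were 2 with upper-quartile factors or the unstranded column, 3 with voom, with no count filter or with the replicate block, and 4 with DESeq2, which called 4 lower. Both were 0 without ROSA 1 and ROSA 2, and higher calls were 1 to 3 and lower calls 2 without 1 library. Col1a2 turned to -0.012 without ROSA 1 and ROSA 2 and ran from -0.0091 (without BMPR2 DELX 3) to 0.21 without 1 library. Col16a1 turned to 0.040 with voom and 0.026 without BMPR2 DELX 3 and ROSA 3, and ran from -0.16 to 0.12 without 1 library. On the unstranded column the Col4a1 to Col4a2 ratio was 1.69 in BMPR2 DELX and 1.55 in ROSA. The cause of these shifts was not tested.

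With the replicate block, 6 chains were higher and 4 lower, of which 3 and 3 were called without it: it added Col8a1 (0.47, adjusted p 0.024), Col15a1, Col18a1 and Col4a5 and dropped Col24a1 and Col19a1 (adjusted p 0.065 and 0.0505). Same-numbered libraries had correlations of deviations of 0.005, 0.21, 0.245 and 0.0935, so the numbers were not taken as pairs, and not every library correlated best with its own number. At this depth the 11 untested chains had at most 14 counts and at most 0.399 CPM in any library, too few to be tested in the main fit.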

Other observations

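Col6a2, Col6a1 and Col18a1 lie within chromosome 10, 76595762 to 77166548, and each was lowest of all libraries in ROSA 3, at 0.139, 0.236 and 0.354 times the mean of the other ROSA libraries. The 2 other tested genes that lie within this stretch, Pcbp3 and Slc19a1, had 0.786 and 0.988 times that mean.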
